A study of Akebia trifoliata with 9 samples.

Results

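The 100 most abundant transcripts of Akebia trifoliata leaves were selected on their level: of 82321 assembled transcripts in the table, they are the identifiers with the largest mean TPM over all 9 libraries. TPM gives the abundance of a transcript per length, as its part of a fixed total that is the same in every library. The leaves came from cuttings of this woody vine and were taken after 28 days of treatment, in 3 groups of 3 libraries. CUR50 plants received a spray of artificial acid rain at pH 2 and had curcumin, a polyphenol that colours turmeric yellow, supplied to their roots at 50 µmol/L. CUR0 plants were sprayed with the same acid rain and received 0 µmol/L of curcumin, and Control plants had distilled water in place of both. The submitters describe biological replicates, but the plant and replicate numbers of the labels do not match, so a library may not be a separate plant. An SD or p-value here therefore covers library-to-library spread, some of it possibly technical. Read numbers cannot be recovered from TPM, so the depth behind each value is unknown.

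Leaf RNA of flowering plants is typically dominated by a small number of transcripts, because photosynthetic cells need large amounts of a few proteins. Among the best known are the small subunit of Rubisco, which fixes carbon dioxide in the chloroplast, Rubisco activase, and the chlorophyll-binding proteins that harvest light. Metallothioneins, catalase and translation factors are other frequent names at the top of leaf transcript lists. The 82321 identifiers are names of the kind given by Trinity, a program that assembles transcripts from reads alone. They stop at the gene level of that naming, without an isoform number, and are called transcripts here. None of them, and none of the 100, matched a name, tag or accession among the 32005 genes of the Akebia trifoliata reference table of assembly ASM1797944v1. The members are therefore described by identifier and rank, and which of these proteins they encode, and whether the labelled tissue shows its defining leaf markers, could not be checked.

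The 100 identifiers had been chosen for their level, so their level itself is a description. They held 45.0%, 42.1% and 37.6% of all TPM in the CUR50 libraries 1 to 3, 44.7%, 49.9% and 48.1% in the CUR0 libraries, and 45.0%, 44.0% and 44.2% in the Control libraries. The group means were 41.5% ± 3.73 in CUR50, 47.6% ± 2.65 in CUR0 and 44.4% ± 0.536 in Control (SD, n = 3). Control libraries lay within a narrow range that both treated groups overlapped, and CUR50 replicate 3 and CUR0 replicate 2 were the lowest and the highest of all 9. In tissue RNA, fewer cells of a type and less RNA per cell cannot be told apart.

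**Figure D1:**
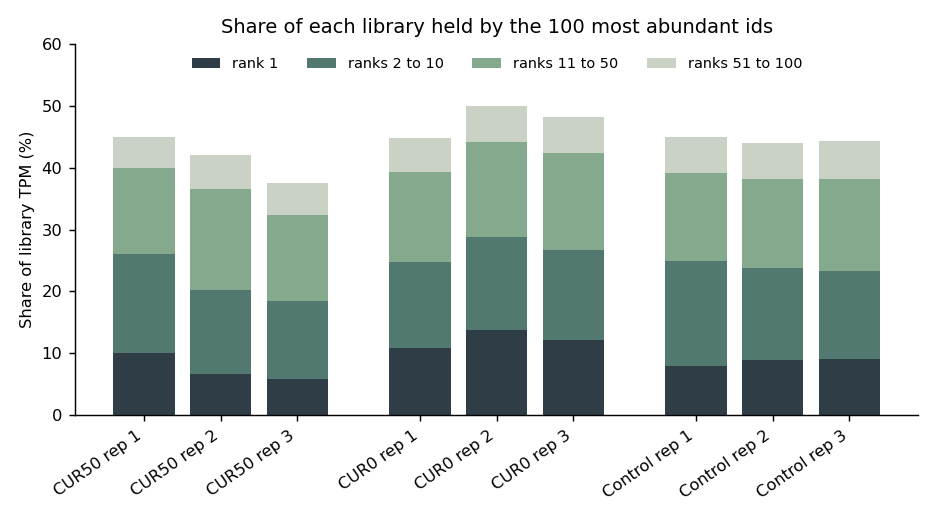
Stacked bars give the percent of each library's TPM held by rank 1, ranks 2 to 10, ranks 11 to 50 and ranks 51 to 100 (rank by mean TPM over 9 libraries); each bar is 1 library of CUR50, CUR0 or Control. The bars reach from 37.6% in CUR50 replicate 3 to 49.9% in CUR0 replicate 2, and the segment of rank 1 varies most.

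The bands of the list differed unequally between the groups. Rank 1 alone took 7.5% ± 2.21 of TPM in CUR50, 12.2% ± 1.41 in CUR0 and 8.61% ± 0.61 in Control (SD, n = 3). Ranks 2 to 10 held 14.1% ± 1.73 in CUR50, 14.5% ± 0.586 in CUR0 and 15.4% ± 1.45 in Control. Ranks 11 to 50 held 14.7% ± 1.28 in CUR50, 15.2% ± 0.62 in CUR0 and 14.6% ± 0.328 in Control, and ranks 51 to 100 held 5.24% ± 0.339, 5.69% ± 0.183 and 5.89% ± 0.132 in the same groups (SD, n = 3). With rank 1 removed from both the sum and the total, the other 99 members held 36.8% ± 2.78 in CUR50, 40.3% ± 2.09 in CUR0 and 39.2% ± 0.975 in Control. Without rank 1 the means of the 3 groups lay closer together than with it.

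The concentration of the leaf RNA can also be read from the number of transcripts needed to reach 50% of a library's TPM. This number was 187, 275 and 420 in the CUR50 libraries, 199, 99 and 125 in the CUR0 libraries, and 186, 219 and 209 in the Control libraries. In CUR0 replicate 2, fewer than 100 transcripts made up 50% of the TPM, whereas CUR50 replicate 3 needed 420. The CUR50 libraries differed most among themselves, and their range took in all 3 Control values except the lowest, 186.

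Because TPM values are shares, the 100 members and the remaining transcripts move in opposite directions. The part of TPM left for all other transcripts was 58.5% in CUR50, 52.4% in CUR0 and 55.6% in Control. On the log2 scale this part differed by 0.16 for CUR50 over CUR0, by -0.085 for CUR0 over Control and by 0.073 for CUR50 over Control. The median difference in log2(TPM + 1) over the 31754 tested transcripts had the same sign in each comparison: 0.12, -0.087 and 0.03. The shift was not the same throughout: in ranks 101 to 200 the median differences were 0.013, 0.042 and -0.047 in the same order. Shares alone do not show whether the RNA of the members or of the other transcripts changed, and this was not tested. Of the summed absolute differences between group mean TPM over the whole table, the 100 members held 44.4% between CUR0 and Control, 46.0% between CUR50 and CUR0, and 36.9% between CUR50 and Control. Rank 1 alone held 13.4%, 15.3% and 3.61% in the same order.

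Levels within the list spanned a wide range. The mean over 9 libraries was 94530 TPM at rank 1 and 750 TPM at rank 100, a ratio of 126, with a median of 1680 TPM. Of the members, 8 averaged over 10000 TPM, 18 over 5000 TPM and 19 under 1000 TPM. At the edge of the list, TRINITY_DN22597_c0_g1 (rank 99, 766 TPM) and TRINITY_DN25516_c0_g1 (rank 100, 750 TPM) lay just inside, and TRINITY_DN5310_c7_g1 (rank 101, 747 TPM) and TRINITY_DN5531_c0_g1 (rank 102, 741 TPM) lay just outside. The values on either side of the limit were close, so the limit separates no classes. No member was at 0 in any library, and all 100 passed the filter on low values.

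TRINITY_DN54103_c1_g1 was the most abundant transcript of every library. It stood at 100262, 65924 and 58947 TPM in CUR50, at 108931, 137104 and 121266 TPM in CUR0, and at 79143, 88693 and 90497 TPM in Control. All 3 CUR0 values lay above every value of the other groups, while CUR50 replicate 1 lay above the Control range and CUR50 replicates 2 and 3 below it. The difference in log2(TPM + 1) was 0.50 ± 0.35 (SE) for CUR0 against Control and -0.74 ± 0.35 for CUR50 against CUR0, and neither passed the threshold (limma, Benjamini-Hochberg adjusted p = 0.440 and 0.241). With a filter of 5 TPM the second passed (adjusted p = 0.0486). It missed in every other alternative, as with median-of-ratios scaling (0.510) and with only the 6 libraries compared (0.845).

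TRINITY_DN11687_c0_g1 (rank 2) and TRINITY_DN8534_c0_g1 (rank 4) had a similar profile across libraries. Rank 2 stood at 32060, 19932 and 17437 TPM in CUR50, at 34016, 40669 and 36626 TPM in CUR0, and at 27866, 33227 and 34709 TPM in Control. Rank 4 stood at 20423, 12312 and 10456 TPM in CUR50, at 21620, 25853 and 22985 TPM in CUR0, and at 18843, 24389 and 25661 TPM in Control. In both, CUR50 replicates 2 and 3 were the lowest of all 9 libraries and CUR50 replicate 1 lay below all CUR0 values. For CUR50 against CUR0 the differences were -0.73 ± 0.28 and -0.76 ± 0.28 (SE) in log2(TPM + 1), with limma adjusted p-values of 0.163 and 0.148. Without CUR50 replicate 1 these differences became -0.99 and -1.05 and passed the threshold (limma, adjusted p = 0.0435 and 0.0356). Without that library rank 4 also passed for CUR50 against Control, with -1.0 and an adjusted p of 0.0285, where all libraries gave -0.72 and 0.137. In the other alternatives these differences missed the threshold. Adjusted p reached 0.618 and 0.499 for CUR50 against CUR0, and 0.338 for rank 4 against Control.

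The proportions of ranks 2 and 4 to rank 1 overlapped between CUR50 and CUR0. The ratio of rank 2 to rank 1 was 0.320, 0.302 and 0.296 in CUR50, 0.312, 0.297 and 0.302 in CUR0, and 0.352, 0.375 and 0.384 in Control. The ratio of rank 4 to rank 1 was 0.204, 0.187 and 0.177 in CUR50, 0.198, 0.189 and 0.190 in CUR0, and 0.238, 0.275 and 0.284 in Control. Both ratios were lower in all 6 acid rain libraries than in any Control library. The ratio of rank 14 to rank 1 differed among all groups without overlap, from 0.0523 to 0.0604 in CUR50, from 0.0649 to 0.0660 in CUR0 and from 0.0748 to 0.105 in Control. For ranks 9 and 12 the acid rain libraries lay above Control, with ratios of rank 12 to rank 9 from 0.701 to 0.716 in CUR50, from 0.698 to 0.771 in CUR0 and from 0.638 to 0.677 in Control. These ratios were chosen after the values had been seen and were not tested.

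The other members of the first 10 differed in which group was highest. TRINITY_DN55166_c0_g1 (rank 3) stood at 19842, 24100 and 21527 TPM in CUR50, 17522, 18293 and 16867 TPM in CUR0, and 28230, 22390 and 19892 TPM in Control, so that CUR0 was below both other groups. TRINITY_DN55123_c1_g1 (rank 5) stood at 22851, 22478 and 18404 TPM in CUR50, 17242, 20172 and 20741 TPM in CUR0, and 14423, 12807 and 12793 TPM in Control. All 6 acid rain values of rank 5 lay above the Control values, with a difference of 0.67 ± 0.19 (SE) for CUR50 against Control that missed the threshold (limma, adjusted p = 0.0563). That difference passed without the filter on low values (adjusted p = 0.0120), with a filter of 5 TPM (0.0114) and without the trend (0.0256). In the other alternatives it missed, with values up to 0.241. For CUR0 against Control the difference was 0.54 ± 0.19 (adjusted p = 0.133), and it passed without the filter (0.0330) or with 5 TPM (0.0339). Elsewhere it missed, with values up to 0.369.

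TRINITY_DN2350_c2_g1 (rank 10) stood at 5693, 10860 and 8226 TPM in CUR50, 6750, 6805 and 6752 TPM in CUR0, and 13573, 11059 and 10022 TPM in Control. CUR0 lay below Control with no overlap and with almost no spread, and the difference of -0.76 ± 0.24 (SE) missed the threshold with all libraries in the fit (limma, adjusted p = 0.0976). It passed without CUR50 replicate 1 or 2, which enter this comparison only through the shared spread (adjusted p = 0.0313 and 0.0458), and with only the 6 libraries compared (0.0271). Array weights per group (0.0275) and quantile normalization (0.0491) also brought it past the threshold. In the other alternatives it missed, with adjusted p-values up to 0.264. TRINITY_DN54044_c0_g1 (rank 9) stood at 14611, 14293 and 9708 TPM in CUR50, 10423, 5990 and 6543 TPM in CUR0, and 9545, 9119 and 9588 TPM in Control.

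TRINITY_DN53673_c0_g1 (rank 6) was uneven within groups. It stood at 17511, 7273 and 18689 TPM in CUR50, at 11174, 12114 and 13733 TPM in CUR0, and at 31047, 13960 and 9526 TPM in Control, so the Control range enclosed nearly all other values. TRINITY_DN5310_c0_g1 (rank 7) averaged 14332 ± 2640 TPM in CUR50, 9635 ± 1125 TPM in CUR0 and 13999 ± 3088 TPM in Control (SD, n = 3). TRINITY_DN18708_c0_g2 (rank 8) averaged 10384 ± 1525 TPM in CUR50, 11084 ± 1081 TPM in CUR0 and 8628 ± 382 TPM in Control. No member of the first 10 passed the threshold in any of the 3 comparisons, and the lowest adjusted p-values among them were 0.0976 in CUR0 against Control, 0.112 in CUR50 against CUR0 and 0.0563 in CUR50 against Control (limma).

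**Figure D2:**
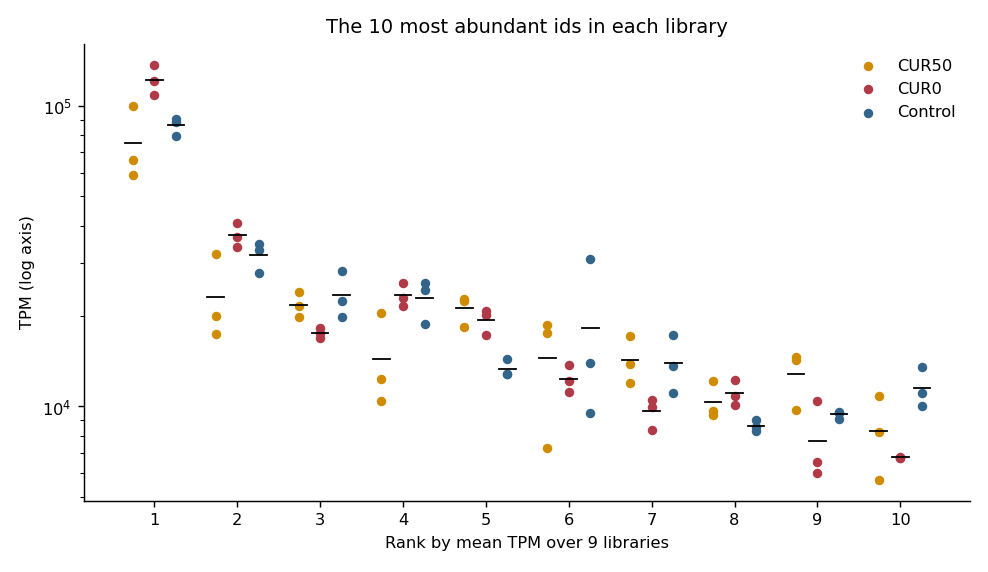
Points give TPM (log axis) of the 10 most abundant identifiers in each library, with black lines at group means; CUR50, CUR0 and Control stand side by side at each rank. At rank 1 the CUR0 points, from 108931 to 137104 TPM, lie above all others, and at rank 5 all CUR50 and CUR0 points lie above the Control points.

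The order of the members was more alike within CUR0 and within Control than between any groups, which did not hold for CUR50. Over the 100 members, Spearman's rho between libraries ran from 0.842 to 0.951 within CUR50, from 0.968 to 0.986 within CUR0 and from 0.933 to 0.985 within Control. Between groups it ran from 0.804 to 0.875 for CUR50 with CUR0, from 0.827 to 0.865 for CUR0 with Control and from 0.731 to 0.831 for CUR50 with Control. CUR50 replicate 1 had rho values of 0.859 and 0.842 with the other CUR50 libraries and of 0.875, 0.851 and 0.872 with the CUR0 libraries. The members were chosen for high levels in these libraries and share one assembly, so the values only describe the list. Rank 1 was first in all 9 libraries, 6 members were among the first 10 of every library, and 66 were among the first 100 of every library. The members present in a library's own first 100 numbered 89, 92 and 85 in CUR50, 95, 90 and 93 in CUR0, and 89, 93 and 93 in Control. Choosing by the mean of 1 group kept 91 members for CUR50, 94 for CUR0 and 92 for Control. No member fell past rank 500 anywhere, and 95 stayed within the first 200 of every library.

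In all CUR0 libraries and in Control replicates 2 and 3, place 2 went to rank 2 of the mean and place 3 to rank 4. CUR50 replicate 1 also had rank 2 at place 2. In CUR50 replicates 2 and 3 place 2 went to rank 3, TRINITY_DN55166_c0_g1, and rank 2 stood at place 4 and place 5. In Control replicate 1 place 2 went to rank 6, TRINITY_DN53673_c0_g1, which was at place 14 in CUR50 replicate 2. The 3 members whose rank differed most between group means were TRINITY_DN6788_c0_g1, at place 42 in CUR50, 88 in CUR0 and 248 in Control, TRINITY_DN6222_c1_g1, at 14, 21 and 101, and TRINITY_DN2484_c0_g1, at 118, 74 and 42. Because the choice used the mean over all 9 libraries, 1 high group can carry a transcript near the limit into the list. TRINITY_DN6788_c0_g1 is such a member, with means of 2121 TPM in CUR50, 845 TPM in CUR0 and 321 TPM in Control. Its rank span and its higher level in CUR50 are therefore tied to the choice.

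For CUR0 against Control, which addresses acid rain alone, 8 of the 100 members passed an adjusted p of 0.05 (limma, over 31754 transcripts), of which 4 rose and 4 fell. The background was 8.26% of all tested transcripts, 2.96% upward and 5.3% downward, so the count lay at the background. Among the 900 transcripts of ranks 101 to 1000, 15.7% changed, 56 upward and 85 downward. The median difference over the 100 members was 0.0051 in log2(TPM + 1), against -0.087 over all tested transcripts, and 6 members differed by more than 2-fold in group means. That 2-fold count was made for the members only, so it has no background to be read against. The values of the 2 groups did not overlap in 44 members, 24 higher and 20 lower in CUR0, where the background was 35.9%, with 12.7% higher and 23.2% lower. In ranks 101 to 1000 the share without overlap was 50.2%. With median-of-ratios scaling 5 members rose and 1 fell, beside 8.9% of all tested transcripts called. With the 10 most abundant identifiers removed 5 of the 90 members left rose and 3 fell, beside 9.07% of all. The count of 8 became 4 without any 1 Control library, 5 without CUR0 replicate 1 or 2, 3 without CUR0 replicate 3 and 17 without CUR50 replicate 1. The share called over all tested transcripts in these fits was 3.94% to 4.4% without a Control library, 6.04%, 4.11% and 3.63% without CUR0 replicates 1 to 3 and 13% without CUR50 replicate 1.

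The 3 largest rises exceeded every fall among the 8 calls. TRINITY_DN6222_c1_g1 (rank 24) had 4601, 5446 and 4861 TPM in CUR0, against 726, 875 and 658 TPM in Control. It rose by 2.73 ± 0.16 (SE) in log2(TPM + 1), a 6.60-fold ratio of means (limma, adjusted p = 0.000185), and moved to place 21 in CUR0, against place 101 in Control. TRINITY_DN6788_c0_g1 (rank 76) had 951, 632 and 952 TPM in CUR0, against 299, 351 and 313 TPM in Control, and rose by 1.37 ± 0.20 (adjusted p = 0.00541). Both calls held in each of the 9 fits with 1 library left out, as did that of TRINITY_DN17149_c0_g1 (rank 48), named after its values were seen, at 2057 ± 346 TPM in CUR0 and 919 ± 183 TPM in Control (difference 1.17 ± 0.18, adjusted p = 0.00727).

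Of the falls, TRINITY_DN3034_c0_g1 (rank 27) had 2586, 2439 and 2911 TPM in CUR0, against 5703, 4916 and 4281 TPM in Control. It fell by 0.90 on the log2 scale (SE 0.18; limma, adjusted p = 0.0210). The call ended with median-of-ratios scaling and without Control replicate 1 or 2 or any 1 of the CUR0 libraries, with adjusted p-values from 0.0608 to 0.0926. TRINITY_DN699_c0_g2 (rank 82) had 887, 683 and 721 TPM in CUR0, against 1073, 1354 and 1279 TPM in Control (difference -0.70 ± 0.15, adjusted p = 0.0249). That call ended without Control replicate 2 or 3 and without CUR0 replicate 2 or 3, with adjusted p-values from 0.0945 to 0.104. The assembly cluster of rank 82 holds 3 identifiers, among which reads may have been divided. The same applies to the named members of ranks 7, 42, 77 and 92, whose clusters hold 2 identifiers each.

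A pair of members showed larger differences than any of these falls and still missed the threshold. TRINITY_DN40427_c0_g1 (rank 33) had 1184, 1021 and 796 TPM in CUR0, against 6305, 5729 and 5556 TPM in Control, with 352, 3850 and 2824 TPM in CUR50. TRINITY_DN9340_c0_g1 (rank 42) had 925, 880 and 585 TPM in CUR0, against 2993, 3822 and 3582 TPM in Control, with 4213, 1569 and 290 TPM in CUR50. CUR0 and Control did not overlap in either, whereas the CUR50 values of rank 42 ran from below the CUR0 range to above the Control range, and those of rank 33 ran from below the CUR0 range to a value under all Control values. The differences for CUR0 against Control were -2.57 ± 0.76 and -2.14 ± 0.79 (SE), with limma adjusted p-values of 0.0770 and 0.146. With only the 6 libraries of CUR0 and Control in the fit they were 0.000773 and 0.00217. With array weights per group they were 0.0107 and 0.0278. Without CUR50 replicate 1 they were 0.000591 and 0.0432. Rank 33 also passed without CUR50 replicate 2 (0.0479) and rank 42 without CUR50 replicate 3 (0.0127). In all other alternatives each missed the threshold, with adjusted p-values up to 0.210 for rank 33 and 0.330 for rank 42.

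**Figure D3:**
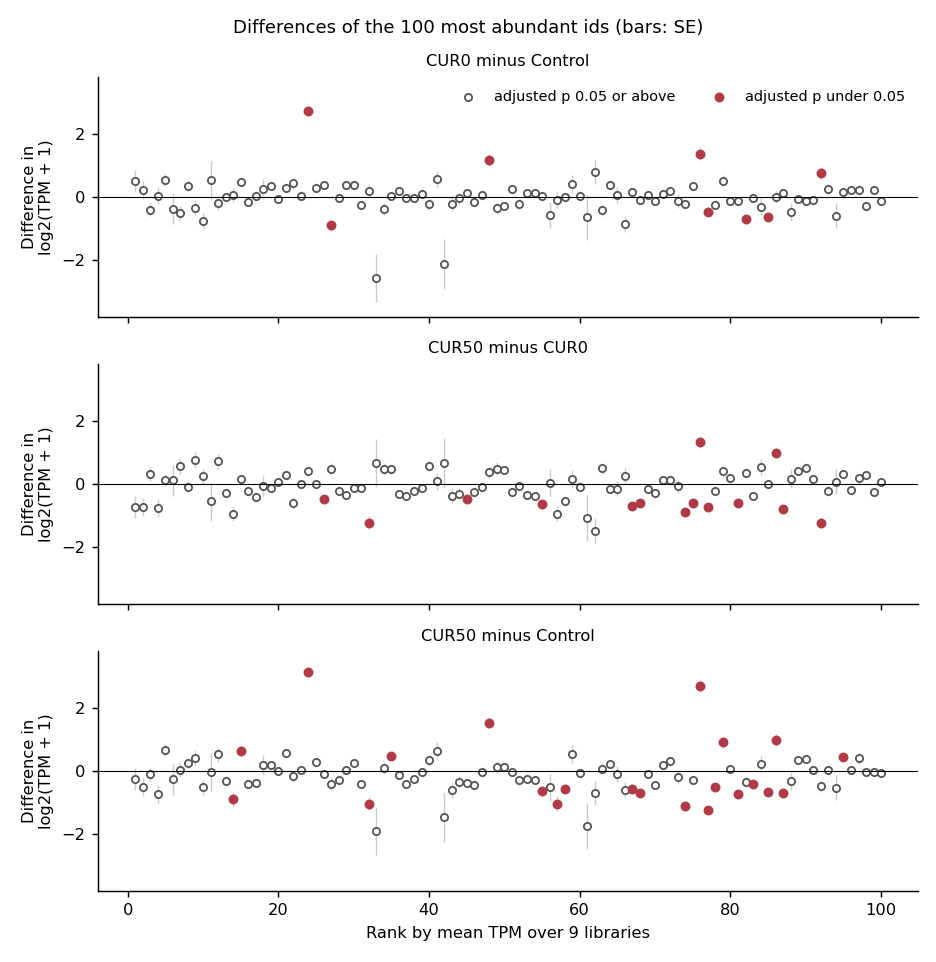
Points give the difference in log2(TPM + 1) of each of the 100 members against its rank for CUR0 minus Control, CUR50 minus CUR0 and CUR50 minus Control; bars are the SE of the limma fit and filled points have an adjusted p under 0.05. In each panel the first 10 ranks hold no filled point, and ranks 33 and 42 in the upper panel are far below 0 with wide bars.

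For CUR50 against CUR0, which addresses curcumin under acid rain, 14 members passed the same threshold in limma, of which 2 rose and 12 fell. The background was 4.77% of all tested transcripts, 2.57% upward and 2.2% downward, and 15.6% of ranks 101 to 1000 changed. Of those in ranks 101 to 1000, 43 rose and 97 fell, and in ranks 101 to 200, 2 rose and 13 fell. The median difference over the 100 members was -0.10 in log2(TPM + 1), against 0.12 over all tested transcripts. Values did not overlap in 48 members, 14 higher and 34 lower in CUR50, where the background was 25.4%, with 17.1% higher and 8.26% lower. The share without overlap was 42.9% in ranks 101 to 1000, with 190 higher and 196 lower. In ranks 101 to 200 it was 45.0%, with 16 higher and 29 lower. With quantile normalization 5 members rose and 12 fell, beside 5.14% of all tested transcripts called. With only the 6 libraries compared, limma called 0 members and 0.583% of all tested transcripts, with 27 members at an unadjusted p under 0.05. Array weights per group gave 10 members and 1.6% of all. The count was also 0 without CUR0 replicate 2 or 3, with 30 and 34 at an unadjusted p under 0.05 and 0.4% and 0.419% of all tested transcripts called. It was 5 and 8 without Control replicate 2 or 3, 4 without CUR50 replicate 3 and 27 without CUR50 replicate 1, where 1.56%, 1.93%, 1.27% and 10.8% of all were called. None of the 14 calls held in all fits with 1 library left out.

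Both rises lay in the lower ranks, and both members are in the list through their CUR50 values. Over CUR0 and Control alone neither averaged the 750 TPM of rank 100. Their direction and their place in the list are therefore tied to the choice. TRINITY_DN6788_c0_g1 (rank 76), which had risen under acid rain, had 1782, 1940 and 2640 TPM in CUR50, against 951, 632 and 952 TPM in CUR0, a difference of 1.33 ± 0.20 (SE; limma, adjusted p = 0.0161). TRINITY_DN8485_c2_g1 (rank 86) had 1479, 1191 and 1505 TPM in CUR50, against 847, 523 and 757 TPM in CUR0, with 717, 694 and 682 TPM in Control. Its difference was 0.99 ± 0.18 for CUR50 against CUR0 (adjusted p = 0.0265) and 0.99 ± 0.18 for CUR50 against Control (0.0109), while CUR0 and Control overlapped. For CUR50 against CUR0 the call of rank 76 ended without CUR0 replicate 2 or 3 (adjusted p = 0.0538 and 0.0567) and with only the 6 libraries compared (0.0904). That of rank 86 ended without Control replicate 2 or 3, CUR0 replicate 2 or 3, or CUR50 replicate 3, with array weights per group (0.0561) and with only the 6 libraries compared (0.119).

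The largest falls among the calls were those of ranks 32 and 92. TRINITY_DN21115_c0_g1 (rank 32) had 1456, 2372 and 1434 TPM in CUR50, against 3441, 4714 and 3975 TPM in CUR0, with 3512, 3480 and 3495 TPM in Control. It fell by 1.23 on the log2 scale (SE 0.21; limma, adjusted p = 0.0229), and the call ended without Control replicate 2, CUR0 replicate 2 or 3 or CUR50 replicate 3, with adjusted p-values from 0.0512 to 0.0977, and with only the 6 libraries compared (0.119). TRINITY_DN203_c0_g2 (rank 92) had 404, 595 and 631 TPM in CUR50, against 1368, 1109 and 1294 TPM in CUR0, with 668, 738 and 820 TPM in Control. Its CUR0 values lay above all others: the difference was 0.76 ± 0.18 for CUR0 against Control (adjusted p = 0.0354) and -1.23 ± 0.18 for CUR50 against CUR0 (0.0149). Both comparisons use the same CUR0 libraries, and those libraries also carried rank 92 into the list. Its means of 543 TPM in CUR50 and 742 TPM in Control were both under the 750 TPM of rank 100. The first call ended without any 1 of the 6 CUR0 and Control libraries (adjusted p from 0.0645 to 0.121), without the filter (0.0533) and without the trend (0.0597). The second ended without CUR0 replicate 2 or 3 (0.0538 and 0.0698) and with only the 6 libraries compared (0.0771).

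For CUR50 against Control, which takes acid rain and curcumin together, 22 members passed the threshold in limma, of which 8 rose and 14 fell. The background was 12.6% of all tested transcripts, 6.17% upward and 6.45% downward, and 27.3% of ranks 101 to 1000 changed. Of those in ranks 101 to 1000, 112 rose and 134 fell. Values did not overlap in 49 members, 19 higher and 30 lower in CUR50, where the background was 32%, with 17.1% higher and 14.9% lower. In ranks 101 to 1000 the share without overlap was 49.8%. The median difference over the 100 members was -0.10 in log2(TPM + 1), against 0.03 over all tested transcripts. Under quantile normalization 15 rose and 12 fell, and 5 rose and 15 fell with the 10 most abundant identifiers removed. The count became 10 and 11 without Control replicate 2 or 3, 14 without CUR0 replicate 3 and 11 without CUR50 replicate 3, where 5.9%, 5.49%, 9.16% and 7.93% of all tested transcripts were called, and 10 of the 22 calls held in all 9 fits with 1 library left out.

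The same identifiers led the rises here as under acid rain alone, and the comparisons share the Control libraries. TRINITY_DN6222_c1_g1 had 7384, 7011 and 5570 TPM in CUR50, against 726, 875 and 658 TPM in Control, a difference of 3.14 ± 0.16 (SE; limma, adjusted p = 0.000131). For CUR50 against CUR0 its difference was 0.41 ± 0.16, with every CUR50 value above every CUR0 value, and it missed the threshold (adjusted p = 0.158). TRINITY_DN6788_c0_g1 averaged 2121 ± 457 TPM in CUR50 and 321 ± 27.1 TPM in Control (difference 2.70 ± 0.20, adjusted p = 0.000396), and it is in the list through its CUR50 values. TRINITY_DN7563_c0_g1 (rank 77) had 645, 657 and 609 TPM in CUR50 and 922, 1171 and 1115 TPM in CUR0, against 1444, 1490 and 1541 TPM in Control. The 3 groups of rank 77 did not overlap, and it fell by 1.23 for CUR50 against Control (SE 0.11; adjusted p = 0.000662). TRINITY_DN14624_c0_g1 (rank 74) had 648, 737 and 620 TPM in CUR50, against 1299, 1383 and 1648 TPM in Control, with 1144, 1395 and 1168 TPM in CUR0 (difference from Control -1.11 ± 0.13, adjusted p = 0.00210). The 4 calls named for this comparison held in all 9 fits with 1 library left out.

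**Figure D4:**
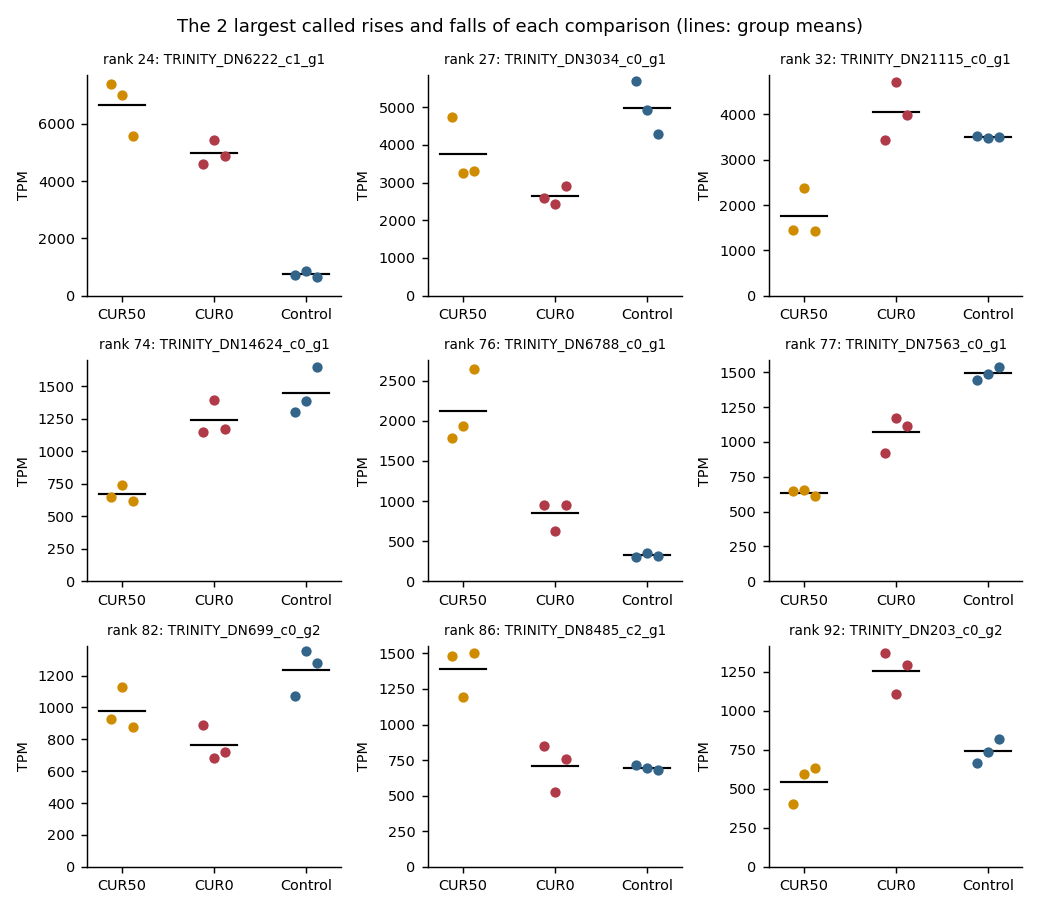
Points give TPM in each library for the 9 members that include the 2 largest called rises and falls of each comparison, with lines at the group means and CUR50, CUR0 and Control from left to right. TRINITY_DN6222_c1_g1 is at 658 to 875 TPM in Control and at 4601 to 7384 TPM in the acid rain libraries, and TRINITY_DN203_c0_g2 is highest in CUR0.

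The calls were also counted by band of the list, and differences between bands were not tested. Ranks 1 to 10 held 0 calls in every comparison, with 2, 4 and 2 at an unadjusted p under 0.05 in CUR0 against Control, in CUR50 against CUR0 and in CUR50 against Control (limma). Ranks 11 to 50 held 3, 3 and 6 calls among 40 members, and ranks 51 to 100 held 5, 11 and 16 among 50, where 8.26%, 4.77% and 12.6% of all tested transcripts were called. The median absolute difference in log2(TPM + 1) was 0.39, 0.44 and 0.35 in ranks 1 to 10 and 0.21, 0.31 and 0.40 in ranks 51 to 100. The median coefficient of variation, the SD as a percent of the mean, was 25.4% in CUR50, 9.72% in CUR0 and 13.5% in Control in ranks 1 to 10. In ranks 51 to 100 it was 14.3%, 9.71% and 10.3% in the same groups. The group with the highest mean was CUR50 for 32 members, CUR0 for 33 and Control for 35. Over all tested transcripts the mean was highest in CUR50 for 43.5%, in CUR0 for 20.1% and in Control for 36.3%.

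The spread of the members between replicate libraries was largest in CUR50. The median coefficient of variation was 14.3% in CUR50, 9.56% in CUR0 and 8.04% in Control, and CUR50 had the highest of the 3 in 66 members. In ranks 101 to 1000 the medians were 13.4%, 8.36% and 6.62%, and CUR50 was highest in 63.6%. Over all tested transcripts they were 31.2%, 20.5% and 17.8%. Each library was also set against the geometric mean of the other libraries of its group. The number of members more than 1.5-fold away was 23, 14 and 12 for CUR50 replicates 1 to 3, 3, 2 and 1 for CUR0, and 6, 0 and 2 for Control. CUR50 replicate 1 stood apart most often, and in ranks 101 to 1000 it was also the library with the largest share past 1.5-fold, 18.8%.

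**Figure D5:**
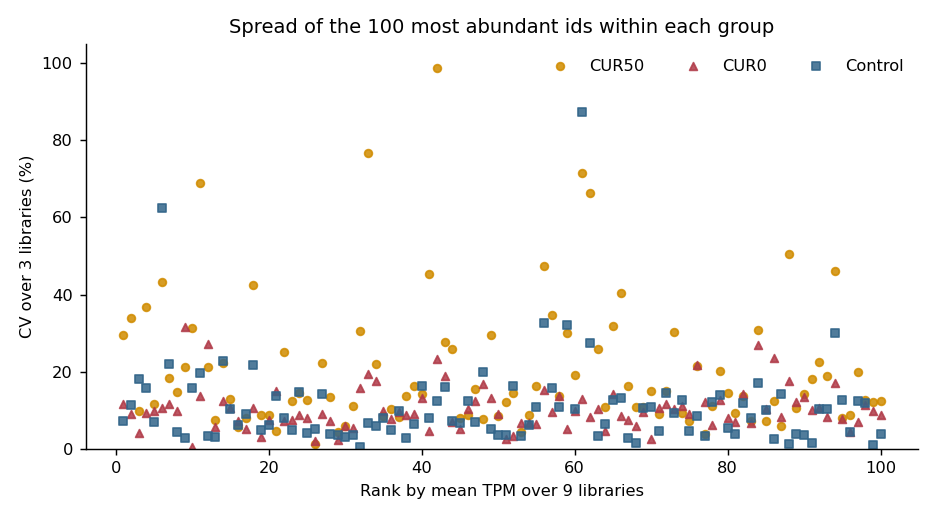
Points give the coefficient of variation over the 3 libraries of each group (percent) for the 100 members against rank; circles are CUR50, triangles CUR0 and squares Control. Of the 8 points above 50%, 6 belong to CUR50, 0 to CUR0 and 2 to Control.

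The members that varied most within a group differed from group to group. In CUR50 they were TRINITY_DN9340_c0_g1, with a coefficient of variation of 98.9%, and TRINITY_DN40427_c0_g1, with 76.8%. These did not move together, since CUR50 replicate 1 was highest for the first and lowest for the second. In CUR0 they were TRINITY_DN54044_c0_g1 (31.6%) and TRINITY_DN15420_c0_g1 (27.3%), ranks 9 and 12, both highest in replicate 1. Rank 12 had 10457, 10022 and 6922 TPM in CUR50, 7280, 4375 and 5046 TPM in CUR0, and 6467, 6097 and 6112 TPM in Control. In Control they were TRINITY_DN2484_c0_g1 (87.4%) and TRINITY_DN53673_c0_g1 (62.5%), both highest in replicate 1. TRINITY_DN2484_c0_g1 (rank 61) had 1104, 198 and 599 TPM in CUR50, 1146, 928 and 1193 TPM in CUR0, and 4380, 1516 and 717 TPM in Control, and its place of 436 in CUR50 replicate 2 was the lowest of any member in any library.

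Other members were nearly level across all 9 libraries. The coefficient of variation over the 9 was under 15% in 33 members and over 50% in 5, with a median of 19.9%. The smallest values were those of TRINITY_DN11688_c1_g1 (rank 20, 6.85%), TRINITY_DN48458_c1_g1 (rank 23, 7.91%) and TRINITY_DN25516_c0_g1 (rank 100, 8.65%). Rank 20 had 5045, 5036 and 4320 TPM in CUR50, 4203, 4787 and 4805 TPM in CUR0, and 4533, 4739 and 5121 TPM in Control, and its groups overlapped in all comparisons. Rank 23 averaged 4324 ± 539 TPM in CUR50, 4296 ± 325 TPM in CUR0 and 4179 ± 203 TPM in Control (SD, n = 3).

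The identifiers themselves carry 1 further property, the assembly cluster, that the choice did not use directly. Trinity groups related sequences into clusters, and the 100 members lay in 100 different clusters. Of the members, 26 shared their cluster with at least 1 identifier outside the list, against 52.5% of all tested transcripts. These clusters held 32 other identifiers, whose summed TPM was a median of 0.318% of the member's own and at most 70.3%, with 3 clusters above 10%. Reads of such sequences can be divided among the identifiers of a cluster, which lowers the TPM of each. Cluster sharing is therefore not independent of a choice made on TPM.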

How the data were processed

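The authors deposited TPM values for 82321 transcripts in 9 leaf libraries (3 each of CUR50, CUR0 and Control), rounded to 2 decimals. The deposited columns summed to between 999997 and 1000003, so depth is unknown. Per the submitters' processing notes, the tools included RSEM, Bowtie2, fastp and DESeq2; no version, assembly setting or filter is given in the sources used here. Columns were matched to libraries by title (2 Control columns lack a letter), and 0 columns were left without a library. TPM are shares, so a change of an abundant transcript moves all others.

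The 31754 transcripts reaching 1 TPM in 3 or more libraries were tested with limma 3.58.1 in R 4.3.3 on log2(TPM + 1), which understates changes of low transcripts. The fit had 1 mean per group, an intensity trend, all 9 libraries in a common spread estimate (residual degrees of freedom 6, prior 2.49) and Benjamini-Hochberg adjustment over all tested transcripts (threshold 0.05). The test was checked on simulated data for CUR0 against Control only, with the same spread in all groups. That check does not cover the unequal spread of the groups seen here. Members and tests were chosen with earlier results of these data known. Singled out were the first 10, up to 2 rises and 2 falls per comparison among called, non-overlapping members, the identifiers around rank 100, the 2 most variable per group, the 3 steadiest and the 3 with the widest rank range. Gene lists could not be applied, as identifiers carry no names. Alternatives were median-of-ratios and quantile scaling, TPM rescaled without the first 10 identifiers, pseudocount 0.1, no filter, 5 TPM, no trend, 6 libraries, array weights, a replicate block, a minimum difference of 1, 1 library left out, and, for the shares, other denominators and member choices. Figures used matplotlib 3.10.9 under Python 3.11.15.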

Additional observations from a re-analysis of the deposited data

How the results depend on the processing

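The members called numbered 8 in CUR0 against Control, 14 in CUR50 against CUR0 and 22 in CUR50 against Control. With a filter of 5 TPM it was 13 in CUR0 against Control and 30 in CUR50 against CUR0, where 12.5% and 14.7% of all tested transcripts were called. With only the 6 libraries compared it was 17, 0 and 10 in the order given, beside 15.2%, 0.583% and 7.61% of all (limma; 27 members at an unadjusted p under 0.05 for the 0). A minimum difference of 1 left 3, 3 and 7, beside 5.05%, 1.97% and 6.62%. Array weights per group gave 18 in CUR0 against Control (16.1% of all), and the fit without the trend gave 8 in CUR50 against CUR0 (2.08%). With 1 library left out the ranges were 3 to 17, 0 to 27 and 10 to 26, beside 3.63% to 13.0%, 0.4% to 10.8% and 5.49% to 15.4% of all. The replicate block gave 5 in CUR0 against Control, 5 in CUR50 against CUR0 and 15 in CUR50 against Control, beside 5.61%, 0.727% and 8.68% of all, and it ended the acid rain calls of TRINITY_DN699_c0_g2 (adjusted p = 0.0637) and TRINITY_DN203_c0_g2 (0.0545). Same-numbered libraries had deviations correlated from -0.0379 to 0.0855, not every library correlated best with its own number, and the numbers were not taken as pairs. The causes of these changes were not tested. Without the most abundant identifier the share of TPM was 36.8% in CUR50, 40.3% in CUR0 and 39.2% in Control, and over tested transcripts only it was 45.2% in Control. With 1 library left out the shares ran from 39.8% to 43.5%, 46.4% to 49.0% and 44.1% to 44.6%. Other ways of choosing members kept 91 to 100 of the 100, and 98 to 100 with 1 library left out.

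The differences examined singly changed sign in 15 cases, all for uncalled members of the first 10. For CUR50 against Control, rank 3 turned to 0.24 and rank 7 to -0.093 with quantile normalization. With 1 library left out, rank 3 ran from -0.21 to 0.044, rank 6 from -0.64 to 0.21 and rank 7 from -0.11 to 0.20. For CUR50 against CUR0, rank 5 turned to -0.026 with median-of-ratios scaling. Rank 6 turned to -0.062 and -0.037 with quantile and median-of-ratios scaling and ran from -0.12 to 0.56 with 1 library left out. For CUR0 against Control, rank 4 ran from -0.10 to 0.13 and rank 6 from -0.76 to 0.092 with 1 library left out. Quantile normalization sets rank 1 to a difference of 0 by construction.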
